A study of Mus musculus with 8 samples.

Results

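Endothelial cells set the calibre of vessels and keep blood fluid through a small group of secreted peptides, enzymes and surface receptors. The 10 genes described here were taken by symbol, as a list of known roles with no threshold on their values, from the 24394 symbols shared by the tables of all libraries: Nos3, Edn1, Ece1, Ednrb and Ace for vasoactive signalling, and Vwf, Thbd, Procr, Tfpi and Plat for haemostasis. RNA was measured in brain endothelial cells of mice at postnatal day 8, sorted by flow cytometry, in 2 groups of 4 libraries. The group called WT is labelled wild type, strain C57BL/6J. The group called YT-ECKO is Yapf/f Tazf/f carrying VE-cadherin-CreERT2, also C57BL/6J: a Cre that tamoxifen activates, driven by an endothelial promoter, removes Yap and Taz (mouse symbols Yap1 and Wwtr1), co-activators that work through the TEAD transcription factors. The control group as labelled carries neither the driver nor the floxed alleles, so the driver, the alleles and any treatment that differed cannot be told apart from the deletion. Nor do the labels say whether each library is a separate mouse, so every p-value reflects only how these libraries spread. In such bulk RNA, fewer cells of a type and less RNA per cell cannot be told apart.

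Nitric oxide, made by the enzyme that Nos3 encodes, relaxes the smooth muscle around a vessel, whereas endothelin-1, cut from its precursor by an endothelin-converting enzyme, constricts it. Angiotensin-converting enzyme makes the constrictor angiotensin II and breaks down the dilator bradykinin. On the haemostatic side, von Willebrand factor tethers platelets, thrombomodulin and the endothelial protein C receptor turn thrombin toward activating protein C, tissue factor pathway inhibitor blocks the start of coagulation, and tissue plasminogen activator starts the lysis of fibrin. Brain capillaries are known for low thrombomodulin and for expression that varies along the arteriovenous axis.

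None of the 10 genes changed detectably between the groups. All 10 passed the filter on low values (at least 10 scaled reads, the deposited values on a linear scale, in at least 4 libraries), 0 of 10 had an adjusted p under 0.05 in limma or in voom on rebuilt reads, and 0 of 10 had an unadjusted limma p under 0.05. Over all 8706 genes tested, 0.0345% passed the adjusted threshold and 5.47% had an unadjusted p under 0.05. The largest difference was that of Thbd, whose mean in YT-ECKO was 1.93 times the WT mean with overlapping values. Fitted differences (YT-ECKO minus WT), on a log2 scale after adding a pseudocount of 2 to the power 7, which understates changes of low genes, were above 0 for 6 of 10 genes and below 0 for 4, where 43.1% of all tested genes were above 0. Their median was 0.18, beside -0.09 over all tested genes. Every 95% interval held 0, and the median half-width of the intervals was 1.01 log2 units, about 2-fold to either side of the estimate. For 0 of the 10 genes did the libraries of one group all lie beyond those of the other, a pattern seen for 3.4% of all tested genes (1.33% higher and 2.07% lower in YT-ECKO).

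**Figure D1:**
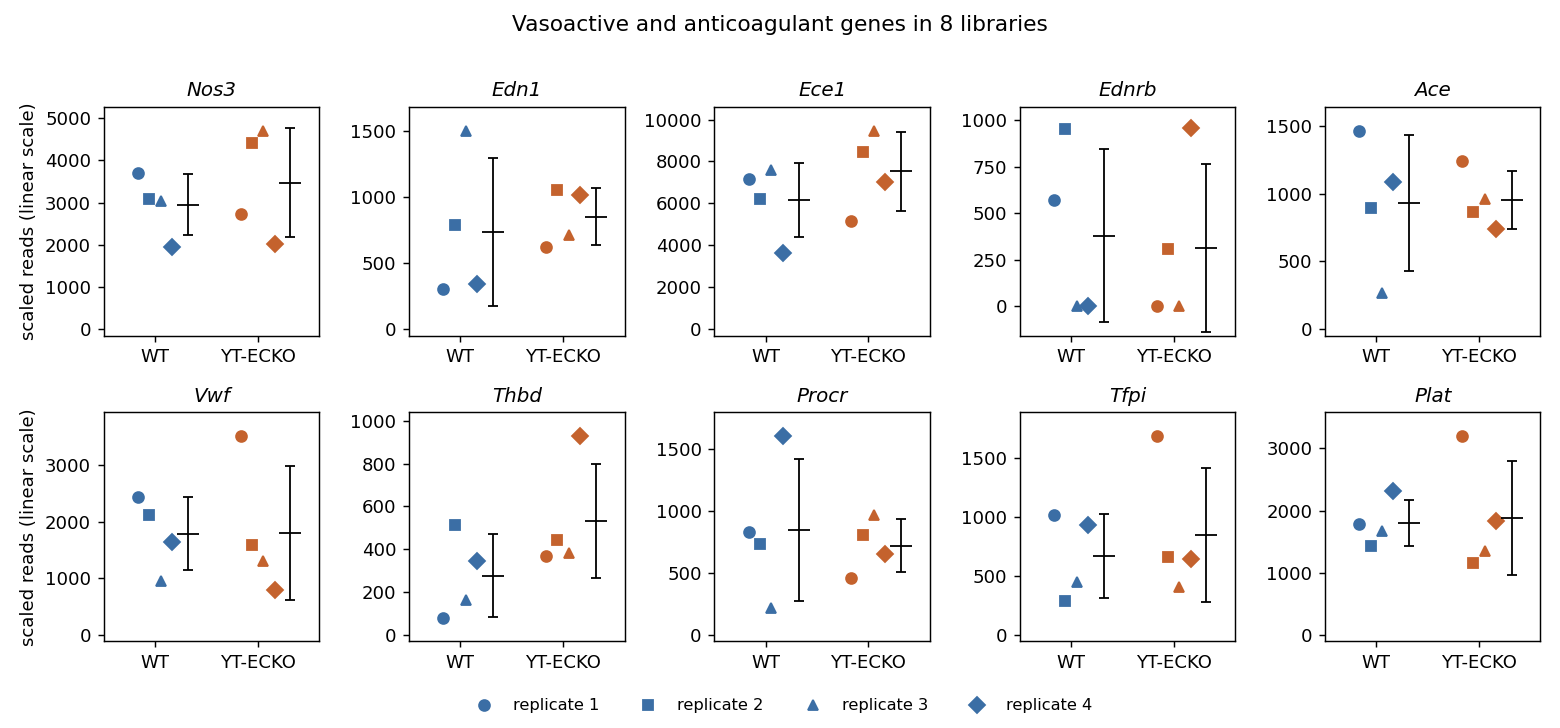
Scaled reads (linear scale, a separate axis for each gene) of the 10 genes in the 4 WT (blue) and 4 YT-ECKO (orange) libraries; the marker shape gives the replicate number, and bars show the mean and SD of each group. The groups overlap in every panel, YT-ECKO 1 is the highest library for Vwf, Tfpi and Plat, and Ednrb is at 0 in 4 libraries.

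The libraries summed to 10.3 to 10.9 M scaled reads, and the spacing of low values implied 6.66 to 16.8 M reads per library. A single read was worth 0.611 to 1.55 scaled reads. Markers of endothelial cells were high in sum in every library. The 12 fixed markers, among them Cdh5, Pecam1, Kdr and Cldn5, summed to 80350 to 97504 scaled reads in WT and 78989 to 109273 in YT-ECKO. Ocln, also on that list, was low, at 179 to 686 scaled reads in WT and 0 to 311 in YT-ECKO. The 6 erythroid cell markers summed to 13115.5 to 37504 scaled reads in WT and 13411 to 48277.5 in YT-ECKO, highest in YT-ECKO 1. Hba-a1 and Hba-a2, both on that list, held the same value in each library. The part of erythroid RNA in the member values was not tested. The targeted genes differed without overlap, Wwtr1 at 5650 to 8220 scaled reads in the WT libraries and 348 to 2608 in the others, and Yap1 at 1409 to 2833 and 9.29 to 605. Of these, Wwtr1 passed the threshold (limma adjusted p = 0.0113) and Yap1, at 0.167 of its WT mean, did not (0.175). The 8 markers of large arteries and arterioles also summed higher in YT-ECKO (3770 to 4787 scaled reads) than in WT (1456 to 3227). That separation was carried by Gja4, a connexin gene, singled out after its values were seen: alone it stood at 748 to 1187 scaled reads in WT and 2031 to 3023 in YT-ECKO, and the other 7 markers summed to 708 to 2042 and 1582 to 1763, which overlap. The 6 vein markers summed to 6861 to 10238 scaled reads in WT and 4377 to 9108 in YT-ECKO, which overlap. The part of the artery and vein markers in the values below was not tested.

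Edn1 (chromosome 13, 42301476 to 42307990, plus strand, GRCm38), which encodes the precursor of endothelin-1, was the 1 member among the 6 with a RefSeq promoter entry (Edn1, Ece1, Ednrb, Ace, Procr and Tfpi) that held the letters CATTCC, a core sequence bound by TEAD factors. Both strands of the window from 250 bases before to 50 after each start site were searched, and 14.7% of all 32851 promoters of that length held a match. The upstream part of the Edn1 window is shown because it is the member sequence nearest to the factors removed in this design; it runs from the plus strand of chr13:42301226-42301475 (RefSeq, GRCm38.p6), with the match in capitals, its first base 207 bases before the start site:
Edn1 upstream: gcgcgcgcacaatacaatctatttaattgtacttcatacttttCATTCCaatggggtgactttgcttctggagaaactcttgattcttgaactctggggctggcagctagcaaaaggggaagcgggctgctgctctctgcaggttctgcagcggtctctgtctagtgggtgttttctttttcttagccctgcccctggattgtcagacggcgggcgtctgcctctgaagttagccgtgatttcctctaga
CACCC, a short form of the box bound by KLF factors, was present in 10 of the 11 windows of these members and in 57.5% of all promoters. Some genes have several start sites, and overlapping windows of Ece1 count the same CACCC again. Member windows were also richer in GC (median 58.7% beside 52.7% for all), so the shares are not like for like. TGANTCA, the AP-1 site, was found in 1 of the 11 windows, that of Procr, and in 7.81% of all promoters, and CATTCC likewise in 1 of 11. A match of letters is not a site of binding.

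Edn1 levels in the YT-ECKO libraries lay within the WT range. The WT libraries held 305, 790, 1504 and 341 scaled reads (replicates 1 to 4) and the YT-ECKO libraries 625, 1054, 711 and 1013. WT thus spanned 4.94-fold from lowest to highest, with WT 3 high and WT 1 and WT 4 low, whereas YT-ECKO spanned 1.69-fold. The means were 851 ± 215 in YT-ECKO and 735 ± 558 in WT (SD, n = 4 each), and the log2 difference was 0.37 ± 0.50 (SE; limma adjusted p = 0.990), with a 95% interval that corresponds to 0.630- to 2.66-fold. The two-sided exact permutation p was 0.771.

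Ece1 (chromosome 4, 137862237 to 137965229, plus strand), the converting enzyme that releases endothelin-1, stood at 7156, 6230, 7570 and 3631 scaled reads in WT 1 to 4. In YT-ECKO 1 to 4 it stood at 5149, 8469, 9476 and 7014. YT-ECKO 2 and 3 lay above every WT library, and WT 4 was the lowest of the 8. The log2 difference of 0.30 ± 0.30 (SE; limma adjusted p = 0.990) had a 95% interval of 0.807- to 1.89-fold, among the narrowest of the members, and the exact permutation p was 0.371. Without WT 4 the difference was 0.07.

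Ednrb (chromosome 14, 103814625 to 103844402, minus strand), the endothelin B receptor that in endothelium triggers nitric oxide release and clears the peptide, was above 0 in only 4 libraries, 2 of each group. It held 570 and 954 scaled reads in WT 1 and 2, and was listed at 0 in WT 3 and 4. It held 306 and 958 in YT-ECKO 2 and 4, and was listed at 0 in YT-ECKO 1 and 3. Among the 3958 tested genes that reached 900 scaled reads in some library, 28 (0.707%) were listed at 0 in 4 libraries, and 82.9% were above 0 in all 8. The filter on low values had already removed genes at 0 in more than 4 libraries, so these shares depend on it. A log2 difference of -0.17 ± 0.81 (SE) was fitted (limma adjusted p = 0.994) and carries the widest interval of the 10, from 0.272- to 2.90-fold. Astrocytes also express this receptor. The 7 astrocyte markers summed to 766 to 1240 scaled reads in WT and 497 to 1075 in YT-ECKO, most of it from Gja1. Slc1a2 ranged from 111 to 355 in WT and 0 to 221 in YT-ECKO, and Slc1a3 from 0 to 258 and 0 to 46.0. Aldh1l1 was at 0 in all 8 libraries. Their part in the Ednrb values was not tested.

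Of the other endothelin genes, all 5 of which are given here, Edn2 and Kel were listed at 0 in all 8 libraries. Ednra, the smooth muscle receptor, was above 0 in YT-ECKO 3 alone (91.1 scaled reads). Edn3, a ligand of the B receptor, ranged from 61.6 to 586 scaled reads in WT and from 50.6 to 777 in YT-ECKO. Ece2, a second converting enzyme, held 223, 248, 1.72 and 179 scaled reads in WT 1 to 4, was listed at 0 in YT-ECKO 1 to 3 and held 10.4 in YT-ECKO 4. WT 3 fell inside the YT-ECKO range for Ece2. The difference of -1.04 ± 0.41 (log2, SE) did not pass (limma adjusted p = 0.817; exact permutation p = 0.0571). Its unadjusted limma p was the only 1 under 0.05 among the 52 tested genes of the related pathways, beside 5.47% of all tested genes.

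Nos3 (chromosome 5, 24364810 to 24384474, plus strand), the endothelial nitric oxide synthase, overlaps a neighbour in a way that leaves its level uncertain. Atg9b (24384181 to 24392143, minus strand), an autophagy gene, meets it tail to tail, and the last 294 bases of both genes, all within annotated untranslated regions, are the same stretch of chromosome 5 (24384181 to 24384474). The sources used here do not give the strand setting of the counting. Nos3 stood at 3704, 3087, 3045 and 1956 scaled reads in WT 1 to 4 and 2736, 4414, 4708 and 2024 in YT-ECKO 1 to 4. Atg9b stood at 3553, 2625, 2986 and 1540 in WT and 2636, 4223, 4567 and 1965 in YT-ECKO. In each library the Atg9b value was 78.7% to 98.1% of the Nos3 value, and of the 1934 genes averaging 1000 or more scaled reads Atg9b was the one most like Nos3 over the 8 libraries (Pearson r = 0.98). Gm15587, annotated antisense to Nos3, shares 1040 exonic bases with it and is not among the listed symbols. Reads of shared stretches cannot be told apart without strand, so the Nos3 value is uncertain as a measure of Nos3 RNA alone.

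**Figure D2:**
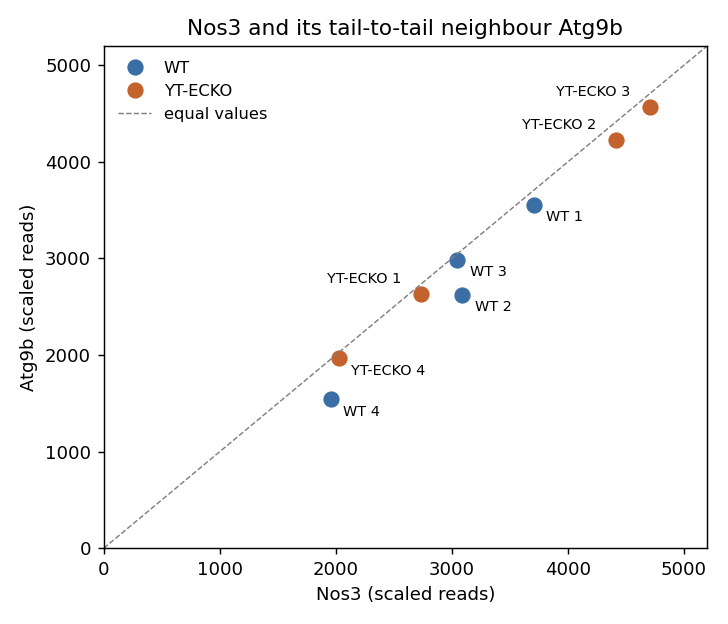
Scaled reads of Atg9b against those of Nos3 in the 8 libraries (WT blue, YT-ECKO orange), with a dashed line of equal values. All 8 points lie under the line, from WT 4 at 1956 and 1540 to YT-ECKO 3 at 4708 and 4567.

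The Nos3 values of the groups overlapped. YT-ECKO 2 and 3 lay above every WT library, while YT-ECKO 4 was close to WT 4, the lowest of all. Means were 3471 ± 1298 in YT-ECKO and 2948 ± 727 in WT (SD, n = 4 each). The log2 difference was 0.18 ± 0.35 (SE; limma adjusted p = 0.991; 0.687- to 1.88-fold), and the exact permutation p was 0.543.

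Genes that supply or restrain nitric oxide synthesis showed no call either. Of 22 genes of nitric oxide and cyclic GMP signalling, 18 were tested; 8 had higher and 10 had lower fitted values, with a median of -0.05, and none passed. Slc7a1, the arginine transporter that feeds the synthase, averaged 28979 ± 6846 scaled reads in WT and 24276 ± 7042 in YT-ECKO (SD, n = 4 each). Hsp90ab1, a chaperone of the family that binds the synthase, averaged 20175 ± 1162 and 20597 ± 1987. Subunits of soluble guanylate cyclase, the nitric oxide receptor of smooth muscle, were named after their values were seen: Gucy1a3 and Gucy1b3 were above 0 in YT-ECKO 3 alone, as was Ednra, and Gucy1a2 in no library. The 10 markers of pericytes and smooth muscle summed to 1248 scaled reads in YT-ECKO 3, the highest of its group, and to 413 to 1821 in WT; their part was not tested.

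Ace (chromosome 11, 105967945 to 105989964, plus strand), a marker of endothelial surfaces, varied more within the WT group than within YT-ECKO. WT 1 to 4 held 1465, 894, 262 and 1089 scaled reads, and YT-ECKO 1 to 4 held 1242, 862, 963 and 738. All 4 YT-ECKO libraries fell inside the WT range, and the means were 951 ± 215 and 928 ± 503 (SD, n = 4 each). The log2 difference of 0.18 ± 0.48 (SE; limma adjusted p = 0.991; 0.571- to 2.25-fold) became -0.24 without WT 3, the library with the lowest value. Choroid plexus epithelium also makes this enzyme. Ttr, its most abundant marker, stood at 4692, 337, 1006 and 0 scaled reads in WT 1 to 4. In YT-ECKO 1 to 4 Ttr stood at 9.29, 7.08, 1451 and 1035. Clic6 ranged from 0 to 138 scaled reads in WT and 0 to 215 in YT-ECKO, and Aqp1 from 0 to 205 and 0 to 256. Folr1 and Kl, other markers of that epithelium, were at 0 in all 8 libraries. The list of 5 summed to 42.8 to 5029 scaled reads in WT and 9.29 to 1741 in YT-ECKO. Its part in the Ace values was not tested.

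Most of the angiotensin and kinin system around Ace was not seen. Of 16 related genes, 11 were listed at 0 in all 8 libraries, among them the substrate gene Agt, the renin gene Ren1, the angiotensin receptor genes Agtr1a, Agtr1b and Agtr2, the kinin receptor genes Bdkrb1 and Bdkrb2, Kng1, Anpep and Mme. The 3 tested genes all had lower fitted values in YT-ECKO, and none passed. Atp6ap2, the (pro)renin receptor, averaged 890 ± 169 scaled reads in WT and 538 ± 332 in YT-ECKO (SD, n = 4 each; limma adjusted p = 0.980). Agtrap, which encodes a protein that binds the angiotensin II receptor, averaged 291 ± 346 and 62.5 ± 111 (limma adjusted p = 0.980). Prostanoid genes were likewise mostly low: 4 of 12 were tested, 1 with a higher and 3 with a lower fitted value, and Ptgs2 was at 0 in all libraries. Ptges, a prostaglandin E synthase, averaged 543 ± 324 scaled reads in WT and 543 ± 142 in YT-ECKO, and Ptges3 765 ± 300 and 514 ± 353.

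Vwf (chromosome 6, 125546774 to 125686679, plus strand), the adhesive protein stored in the Weibel-Palade bodies of endothelium, had nearly the same mean in both groups, 1795 ± 1188 scaled reads in YT-ECKO and 1788 ± 647 in WT (SD, n = 4 each). WT 1 to 4 held 2435, 2123, 950 and 1642, and YT-ECKO 1 to 4 held 3509, 1583, 1295 and 794. The YT-ECKO libraries thus held both the highest and the lowest value of all 8, a 4.42-fold span against 2.56-fold in WT. The log2 difference was -0.11 ± 0.44 (SE; limma adjusted p = 0.994; 0.498- to 1.73-fold), and the exact permutation p was 1. Platelets carry von Willebrand factor as well. The 7 platelet and megakaryocyte markers summed to 84.9 to 391 scaled reads in WT and 314 to 833 in YT-ECKO (exact permutation p = 0.0571). That sum came from Itga2b (55.8 to 299 in WT, 119 to 479 in YT-ECKO, highest in YT-ECKO 1) and Gp1bb (0 to 91.8 and 0 to 432). Pf4, Ppbp, Gp9, Gp1ba and Gp6 were at 0 in all 8 libraries. The part of platelet RNA in the Vwf values was not tested.

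Of 13 genes listed under the Weibel-Palade body, not all of them known parts or cargo of it, 6 were tested and none passed. Fitted values were higher for 4 and lower for 2, with a median of 0.20. Mmrn2, an endothelial matrix protein of the multimerin family, was the only 1 of the 52 tested related genes whose groups did not overlap. Over all tested genes that share was 3.4%. It stood at 2994, 2976, 3451 and 3913 scaled reads in WT 1 to 4 and at 4580, 5545, 5890 and 4291 in YT-ECKO 1 to 4. The fitted difference, 0.59 ± 0.30 (log2, SE), gave a limma adjusted p of 0.928. Cd63, a membrane protein of the storage granule, averaged 1293 ± 277 scaled reads in WT and 1738 ± 513 in YT-ECKO (SD, n = 4 each). Selp, the P-selectin gene, was above 0 in YT-ECKO 2 alone (122 scaled reads).

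Thbd (chromosome 2, 148404466 to 148408188, minus strand), the thrombin receptor thrombomodulin, showed the largest fitted difference of the 10, within overlapping groups. The WT libraries held 77.3, 513, 164 and 344 scaled reads and the YT-ECKO libraries 368, 443, 382 and 929. All 4 YT-ECKO libraries were above the WT mean of 275, but WT 2 was higher than 3 of them. The log2 difference was 0.77 ± 0.56 (SE; limma adjusted p = 0.981; 0.761- to 3.81-fold), and the exact permutation p was 0.200. It was 0.49 without WT 1, 0.52 without YT-ECKO 4 and 0.28 with Xist, an RNA of female cells, as a covariate.

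Procr (chromosome 2, 155751117 to 155755471, plus strand), the endothelial protein C receptor, stood at 832, 735, 215 and 1606 scaled reads in WT 1 to 4 and 460, 802, 969 and 649 in YT-ECKO 1 to 4. The WT libraries spanned 7.47-fold, the widest span of any member in a group above 0 throughout, and enclosed all YT-ECKO values. The log2 difference of -0.02 ± 0.52 (SE; limma adjusted p = 0.998; 0.473- to 2.06-fold) ranged from -0.45 to 0.33 when each library was left out in turn.

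Tfpi (chromosome 2, 84432855 to 84476775, minus strand), which inhibits the tissue factor complex, held 1017, 287, 445 and 931 scaled reads in WT 1 to 4. It held 1688, 658, 408 and 641 in YT-ECKO 1 to 4, so that YT-ECKO 1 lay above all other libraries and the other 3 inside the WT range. The log2 difference was 0.26 ± 0.52 (SE; limma adjusted p = 0.991; 0.570- to 2.51-fold) and turned to -0.09 without YT-ECKO 1.

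Among 24 other genes of coagulation and its control, 8 were tested, 4 with higher and 4 with lower fitted values, and none passed. Tissue factor itself, F3, was listed at 0 in 7 libraries and at the value of about 1 read in WT 2. Gas6, a vitamin K-dependent ligand, averaged 2718 ± 1067 scaled reads in WT and 2422 ± 383 in YT-ECKO (SD, n = 4 each). Pros1, which encodes protein S, the cofactor of activated protein C, averaged 967 ± 238 and 1357 ± 177, with an exact permutation p of 0.0571 and a limma adjusted p of 0.990. Coagulation factor genes F2, F7 and F8 were at 0 in all libraries.

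Plat (chromosome 8, 22757727 to 22782844, plus strand), the tissue plasminogen activator, was the steadiest member in WT, with 1779, 1433, 1666 and 2311 scaled reads and a coefficient of variation of 20.7%. YT-ECKO 1 to 4 held 3198, 1157, 1348 and 1837 scaled reads, so that 1 library lay above and 2 lay below every WT library. The log2 difference was -0.02 ± 0.39 (SE; limma adjusted p = 0.998; 0.565- to 1.73-fold), and the exact permutation p was 0.914. Of 12 other fibrinolysis genes, 5 were tested and none passed. Anxa2, a surface receptor for the activator, averaged 4753 ± 1689 scaled reads in WT and 4920 ± 1240 in YT-ECKO, and Serpine2, a protease inhibitor, 1680 ± 636 and 1567 ± 518 (SD, n = 4 each).

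**Figure D3:**
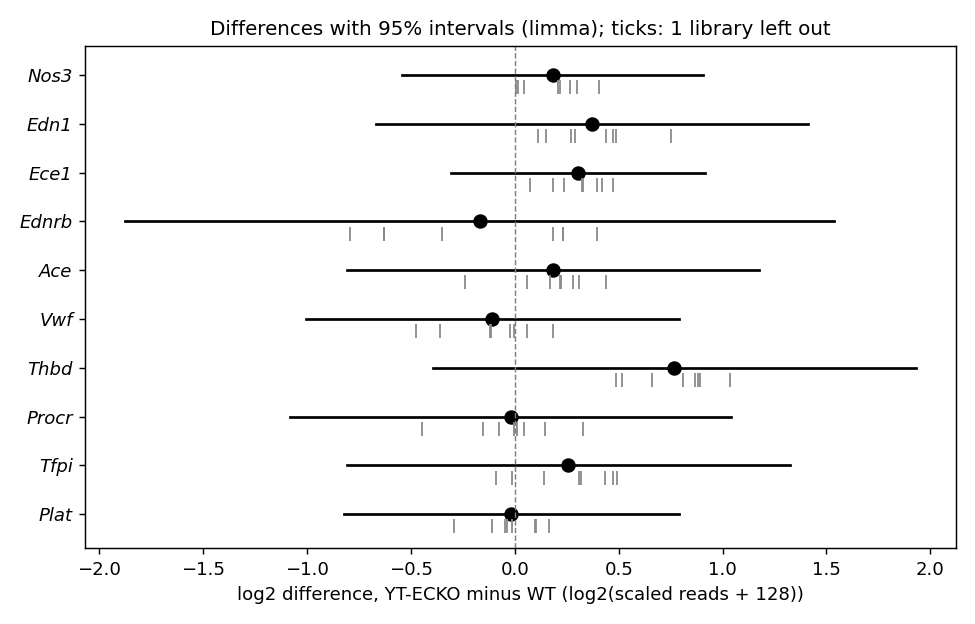
Fitted log2 difference (YT-ECKO minus WT, log2 of scaled reads plus the pseudocount) of each gene with its 95% interval from limma; grey ticks below each interval are the differences with 1 library left out in turn. Every interval spans 0, Ednrb has the widest, and the ticks of Ednrb, Ace, Vwf, Procr, Tfpi and Plat fall on both sides of 0.

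Shear-responsive regulators, several of which are known to control Nos3 and Thbd, had 6 of 8 members tested, 2 with higher and 4 with lower fitted values, and none passed. Mef2a averaged 5578 ± 1412 scaled reads in WT and 7216 ± 2062 in YT-ECKO, and Klf4 1947 ± 898 and 2054 ± 903 (SD, n = 4 each). Klf2, named after its values were seen, held 1269, 1916, 2377 and 1358 scaled reads in WT 1 to 4 and 1241, 1491, 1747 and 1114 in YT-ECKO 1 to 4. Over all 112 related genes, 52 were tested, 22 with higher and 30 with lower fitted values, a median of -0.11 beside -0.09 for all tested genes, and 0 passed (lowest limma adjusted p = 0.817).

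**Figure D4:**
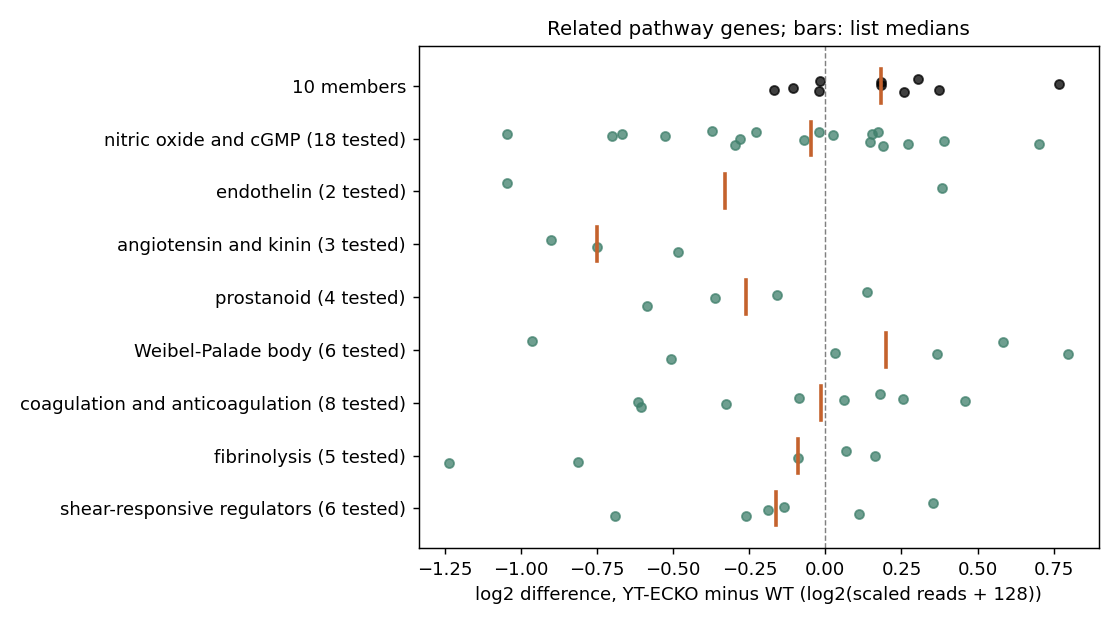
Fitted log2 differences (YT-ECKO minus WT) of the 10 genes and of the tested genes of each related pathway, 1 point per gene, with orange bars at the medians; the vertical spread of points is only for legibility. Points of each list with 4 or more genes lie on both sides of 0, and the 3 angiotensin and kinin genes lie below it.

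Where a member was above 0, its value rested on about 127 reads (Thbd, WT 1) to about 12378 (Ece1), with counting errors of 8.89% and 0.899%. These errors cover counting only, since amplified copies are not independent molecules. Coefficients of variation between replicates ranged from 20.7% (Plat, WT) to 143% (Ednrb, YT-ECKO). Their median was 53.9% in WT and 43.1% in YT-ECKO, beside 59.4% and 75.9% over all tested genes, many of them low. For the 4 members averaging 1000 or more scaled reads, the medians were 26.7% in WT and 43.1% in YT-ECKO. Over all 1935 tested genes at that level they were 32.1% and 38.0%. Variation was larger in WT for 5 members (Edn1, Ece1, Ace, Thbd and Procr) and larger in YT-ECKO for the other 5.

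The 10 genes did not vary together across libraries. Of the 45 pairs, Tfpi and Plat (Pearson r = 0.78), Nos3 and Ece1 (0.77) and Ace and Vwf (0.70) were the most alike over the 8 libraries. Edn1 ran opposite to Ace (r = -0.83; -0.94 within WT and -0.89 within YT-ECKO), and Ece1 opposite to Plat (-0.74). WT 3, for instance, held the highest Edn1 and the lowest Ace of all 8 libraries. YT-ECKO 1, the shallowest library at 6.66 M implied reads, was the highest of the 8 for Vwf, Tfpi and Plat, and YT-ECKO 3 the highest for Nos3 and Ece1. These correlations describe 8 libraries scaled to a common total and are given without a test.

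**Figure D5:**
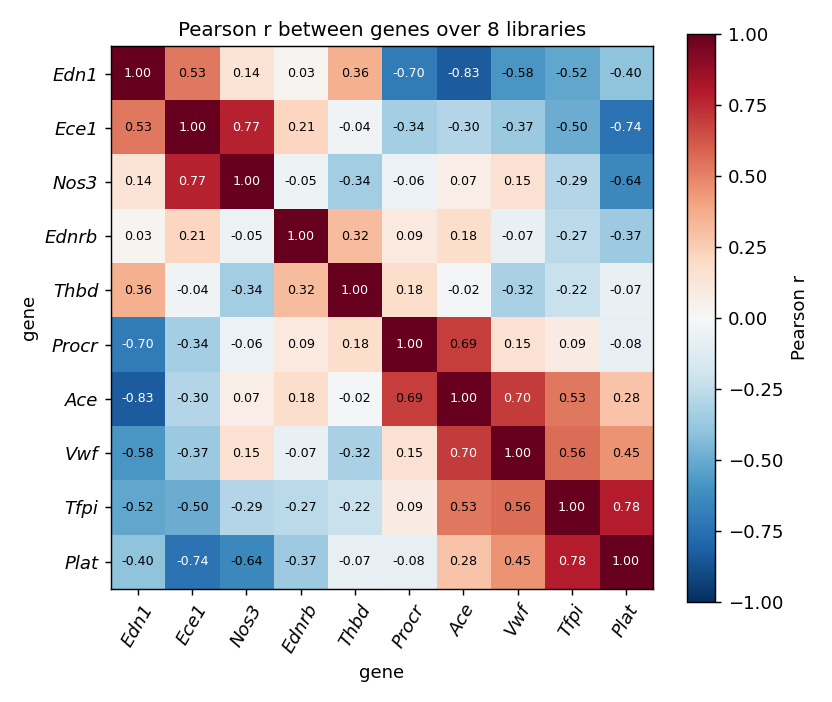
Pearson correlation between each pair of the 10 genes over the 8 libraries, on the log2 scale of the fit, with red for positive and blue for negative values. Ace, Vwf, Tfpi and Plat form a block of positive values from 0.28 to 0.78, and the lowest value, -0.83, is that of Edn1 with Ace.

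By the fixed rule, the genes most like the other abundant members were also listed. They included Notch4 (r = 0.96) for Ece1, Khdrbs1 (0.92) and Ssb (0.91) for Vwf, Pear1 (0.95) and Cox8a (0.93) for Plat, and Hnrnpa0 (0.95) after Atg9b for Nos3. Pear1, a platelet and endothelial receptor, reached 8810 scaled reads in YT-ECKO 1, where Plat was also highest, against 867 to 2888 in the other 7 libraries. Each is among the 2 highest r of 1934 genes for its member, over 8 libraries, so high values come with the search.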

How the data were processed

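The authors deposited 1 table per library with gene symbols and log2 values, none below 0. Per the labels' protocols, libraries were made with Quant-Seq reagents (Lexogen) from 500 ng of Trizol-extracted RNA. Bowtie2, edgeR and mm10 are named in the submitters' processing notes; for versions, annotation, strand setting and the part of the transcript read, the sources used here say nothing. Values were made linear, with 0 left at 0. Totals were alike across libraries, and 88.3% to 100% of values under 12 lay within 0.1 of a whole multiple of a step, so values were read as reads scaled to a common library size.

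limma 3.58.1 (R 4.3.3), with trend and robust moderation and no covariates, was fitted to log2 of scaled reads plus the pseudocount for the 8706 genes that passed the filter, with Benjamini-Hochberg adjustment and a threshold of 0.05. Group means were compared by two-sided exact permutation (scipy 1.17.1), unadjusted. There was 1 test for each of the 10 members, each of the 112 related genes and each summed marker list. The smallest p this test can give for 4 against 4 libraries is 0.0286. The fit was tested on simulated data. Genes were placed with GENCODE M21 (GRCm38, the assembly of mm10). Members, lists, pseudocount and tests were chosen with earlier results of these data known. Named genes were the members, any related gene past the threshold, the 2 most abundant tested genes of each related list, and the 2 genes most like each member averaging 1000 or more scaled reads. Genes at 0 in all or nearly all libraries (such as Ednra, Selp, F3 and Ptgs2), Klf2 and the cyclase subunits were named after their values were seen. Alternatives covered pseudocount, filter, scaling, voom, weights, Xist, the replicate number and each library left out. Some genes that the naming rule selects are not reported here.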

Additional observations from a re-analysis of the deposited data

Results flagged for a closer look

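Thbd in YT-ECKO 4 stood at 929 scaled reads, far above the 368, 443 and 382 of the other YT-ECKO libraries; its gap to the nearest was 0.866 of the group's range, over Dixon's 95% critical value for 4 samples. Of the 10 genes in 2 groups, this was the only such case, and chance alone gives about 5% of groups. Without YT-ECKO 4 the Thbd difference was 0.52 in place of 0.77.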

How the results depend on the processing

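No member passed an adjusted p of 0.05 under any of the 22 alternatives; the lowest limma adjusted p was 0.775, for Thbd with voom on rebuilt reads, where its difference was 1.57. The changed filters and the replicate block cannot alter a member's fitted difference, so their values keep the sign by construction. With these included, of 220 member values under the 22 alternatives, 194 kept their sign. Nos3, Edn1, Ece1 and Thbd kept theirs throughout, though not their size: with 1 library left out they ranged from 0.0074 to 0.40, 0.11 to 0.75, 0.07 to 0.47 and 0.49 to 1.04, and Nos3 was 0.57 with Xist as a covariate. Procr turned positive with pseudocounts of 1 (0.0341), 16 (0.0248) and 64 (0.00139), median-ratio scaling (0.00405), voom (0.17) and array weights (0.20). Plat turned to 0.00574 with totals without Rn45s and 0.0114 with median-ratio scaling, Tfpi to -3.28e-05 with voom, and Vwf to 0.27 with Xist as a covariate. With 1 library left out, differences ranged from -0.79 to 0.40 for Ednrb, -0.24 to 0.44 for Ace, -0.48 to 0.18 for Vwf, -0.45 to 0.33 for Procr, -0.0929 to 0.49 for Tfpi and -0.29 to 0.16 for Plat. The sign of the mean difference turned between the linear and the log2 scale for Vwf (exact permutation p = 0.8286 on the log scale) and Plat (0.971). The causes were not tested. The median of the members stayed between 0.05 and 0.28, and that of all tested genes between -0.28 and -0.03; with a pseudocount of 1 the latter was -0.28 and with voom -0.26. The number of all genes called, 3, became 0 with a pseudocount of 1, without a filter and with voom, 5 with the replicate block, 5 with Xist, and 0 to 7 with 1 library left out. Same-numbered libraries had correlations of -0.04 to 0.08 in their deviations from group means, so the numbers were not taken as pairs. With each number present in both groups, the replicate block can change only the error of a difference, not its size. No member passed with it.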

Other observations

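The likeness of Nos3 to its tail-to-tail neighbour was set beside that of such pairs, a comparison made after the values were seen. Nos3 and Atg9b are themselves among the overlapping pairs counted below. Pairs of tested protein-coding genes on opposite strands that share at least 100 exonic bases at their 3′ ends, averaging 1000 or more scaled reads in either gene, numbered 94. Their median Pearson r over the 8 libraries was 0.63, and 22 of them (23.4%) had an r above 0.9. For 152 pairs that end within 5000 bases of each other without shared bases, the median was 0.03, and 3 (1.97%) had an r above 0.9. Near-equal values were uncommon in both sets: the smaller mean was at least 75% of the larger in 12 of 94 overlapping pairs and 7 of 152 others, with medians of 25.1% and 13.9%. Overlapping pairs picked for close values were Ctu2 and Piezo1 (r = 0.98, the smaller mean 99.2% of the larger), Polr2c and Dok4 (0.996, 99.4%), and Ppib and Snx22 (0.99, 96.5%), beside Nos3 and Atg9b (0.98, 93.8%). The r values are a description over 8 libraries with shared scaling. Their source was not tested, and the sources used here do not give the strand setting of the counting.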
